A study of Mus musculus with 8 samples.

Results

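Acetyl groups on histone tails are written by acetyltransferases and removed by deacetylases, and methyl groups on histone lysines are removed by demethylases. Zinc-dependent deacetylases (the Hdac genes) mostly act inside corepressor complexes, while sirtuins use NAD. Most demethylases carry a JmjC domain and use oxygen, iron and 2-oxoglutarate, and the LSD enzymes use flavin instead. In blood cells these enzymes set the activity of lineage genes, and several are mutated, translocated or targeted by drugs in acute myeloid leukaemia.

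The transcripts described here are those of 48 genes for such enzymes, out of 18193 named genes on the arrays. They were taken by symbol: Hdac, Sirt, Kat and Kdm genes with a number, plus Jmjd1c, Jmjd6, Crebbp, Ep300 and Phf8. Kdm5d was left out, and so was Uty. Membership followed the symbol and not a measured value, but the set was chosen with earlier results of these data known. They are 18 deacetylases, 10 acetyltransferases and 20 demethylases or related JmjC genes, covered by 115 probe sets. Each gene was read from its probe set with the highest mean, and 29 of the 48 genes had several.

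The material was spleen cells from 4 mice with leukaemia driven by the fusion gene MLL-AF10. Bone marrow cells positive for c-kit had been immortalised with a retrovirus and transplanted into CD57BL/6 mice (as the labels spell the strain) after sub-lethal irradiation. Flow sorting split each spleen into a c-kit-high fraction, CD117pos, and a c-kit-negative fraction, CD117neg, so that both fractions came from the leukaemias of the same 4 animals, known as _948, _951, _952 and _953. The sources used here do not give the age or sex of the mice, or whether the leukaemias arose from separate transductions, and a sorted spleen fraction may still hold host cells. One Affymetrix array was made per fraction and mouse, 8 arrays in all.

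The sort marker Kit read 28.6 ± 9.73 (mean ± SD, n = 4) in CD117neg and 751 ± 127 in CD117pos. Among 9 myeloid leukaemia markers, the monocyte and macrophage gene Csf1r (-3.30 on the log2 scale explained below), Itgam (-2.39), Spi1 (-1.63) and Ptprc (-1.03) were lower in CD117pos, the granule genes Elane (2.47) and Mpo (2.20) were higher, and Hoxa9 (-0.02), Meis1 (-0.21) and Cebpa (0.56) did not pass. The summed intensity of these 9 was 25758 to 27956 in CD117neg and 24469 to 28140 in CD117pos. All 5 measured T and NK cell markers lay below the array median on every array, with a summed intensity of 42.1 to 48.7 in CD117neg and 28.0 to 41.9 in CD117pos. B cell markers (Pax5 and Blk of 5 below the median throughout) summed to 236 to 341 and 132 to 279, and erythroid markers (Klf1, Slc4a1 and Rhag of 5) to 81.1 to 97.6 and 67.4 to 169. Megakaryocyte markers (Gp9 and Ppbp of 4) summed to 79.1 to 120.1 and 76.5 to 126, and markers of stroma and endothelium (Col1a1, Col3a1 and Cdh5 of 5) to 152 to 178 and 92.7 to 123. The endothelial and leukocyte gene Pecam1, 1 of the 5, was lower in CD117pos (53.3 ± 7.95 against 22.0 ± 8.23, difference -0.89 ± 0.16, limma adjusted p = 0.0139). Mast cell and basophil markers summed to 87.1 to 259 in CD117neg and 289 to 1281 in CD117pos, with Mcpt8 the 1 of 5 that rose, while Cpa3, Fcer1a and Tpsb2 lay below the array median throughout. The 3' to 5' ratio of the Gapdh control was 5.44 on the CD117pos array of mouse _951 and 2.56 to 3.23 on the other 7 arrays. The part of cell mixture and RNA quality in the differences below was not tested. In such bulk samples, fewer cells of a type and less RNA per cell cannot be told apart.

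Of the 48 genes, 14 were lower and 5 higher in CD117pos than in CD117neg cells, and 29 did not pass (limma, Benjamini-Hochberg adjusted p under 0.05 over all 18193 genes). The lower genes were Kdm7a, Kdm6b, Kdm5b, Hdac4, Hdac9, Sirt7, Ep300, Jmjd1c, Crebbp, Sirt2, Kat2b, Kdm6a, Kat6a and Kdm5c. The higher ones were Kdm8, Sirt5, Hdac2, Sirt3 and Kat14. By class, 4 deacetylases fell and 3 rose of 18 (median log2 difference 0.20), 4 acetyltransferases fell and 1 rose of 10 (-0.45), and 6 demethylases fell and 1 rose of 20 (-0.33). Lower genes were 29.2% of the members, against 13.8% of all named genes, and higher genes 10.4% against 8.36%, a share near the background. The median log2 difference was -0.24 over the members and -0.01 over all genes. In the intensities as deposited, rises made up 26.3% of the members' calls, against 38.9% (7 rises and 11 falls) after quantile normalisation, where the medians were -0.03 and 0.06. Over all genes the share of rises among calls went from 37.7% to 55.7%, so the members' share was below that of all genes under both scalings. Median centring gave 5 rises and 11 falls, beside 10.8% higher and 11.5% lower of all genes, with medians of -0.14 and 0.08. With low probe sets left out, 5 of 46 members rose and 16 fell, against 15.8% higher and 24.3% lower of 10914 genes. The fractions did not overlap in 21 of the 48 members (43.8%), against 27.6% of all genes. Of the 19 called members 16 (84.2%) did not overlap and 19 moved the same way in the 4 mice, shares that were 88.2% and 99.9% over all 4039 called genes. The counts depended on single mice: 0 rose and 6 fell without _948, 9 and 17 without _951, 1 and 7 without _952, and 0 and 4 without _953, each in a fit of 6 arrays. Calls over all genes moved in the same order: 2.47%, 11.7%, 3.36% and 2.42% rose and 6.76%, 16.4%, 7.72% and 6.7% fell. Differences are in log2(intensity + 16), CD117pos minus CD117neg, and folds come from that scale, which understates changes of dim genes. The SE after each difference is the moderated SE of the limma fit, which also draws on the variance of the other genes. It is thus not the spread between the 4 mice alone, and can be larger than that spread.

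**Figure D1:**
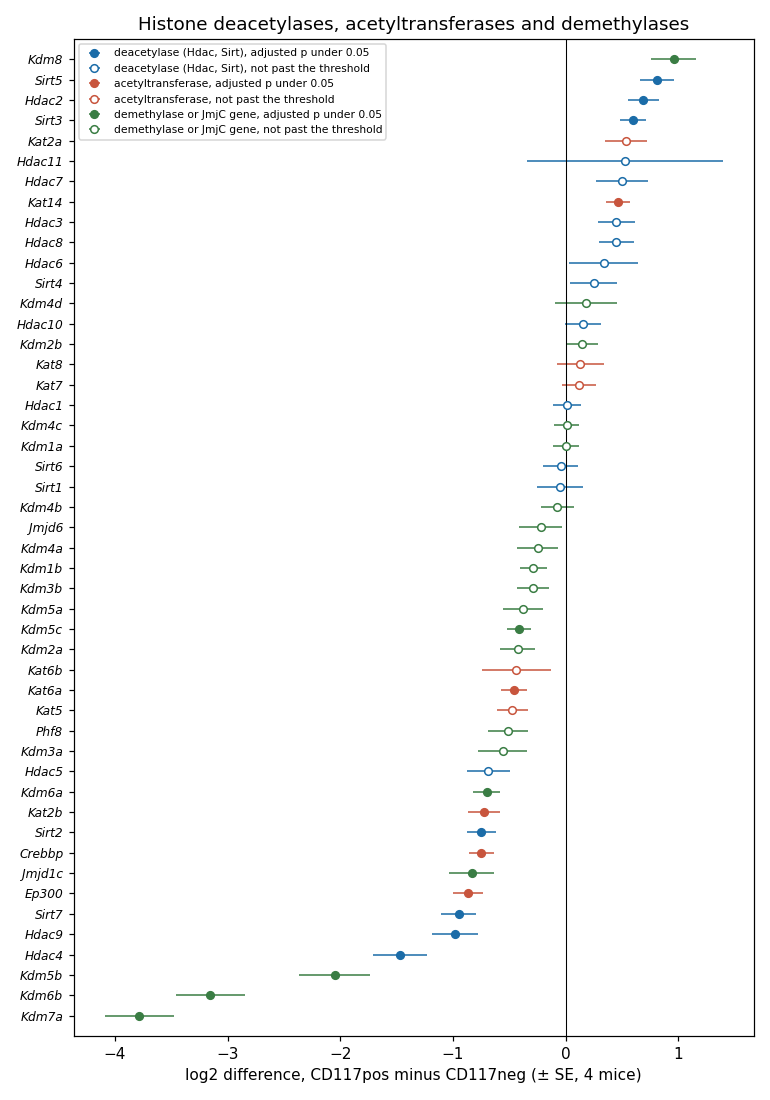
Log2 difference (CD117pos minus CD117neg) of each of the 48 genes, with its moderated SE from the limma fit. Filled points passed the threshold and colours mark the enzyme class. Kdm7a, Kdm6b and Kdm5b lie farthest to the left, and the 5 filled points to the right of 0 lie between 0.46 and 0.96.

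Promoters are shown for the 2 largest falls and the 2 largest rises that have an entry in the RefSeq promoter table, to place the start regions of the genes that moved most beside each other. The table matched 39 of the 48 genes, and Kdm6b, with the second largest fall, is among the 9 that were not matched. Each line holds the 250 bases before the annotated start, 5′ to 3′ on the gene's strand (RefSeq, GRCm38.p6). Capitals mark matches, on either strand, to GGGCGG (the GC box) or CCAAT. The windows are chr6:39206774-39207023 on the minus strand for Kdm7a and, on the plus strand, chr1:134559928-134560177 for Kdm5b, chr7:125444370-125444619 for Kdm8 and chr13:43365285-43365534 for Sirt5.
Kdm7a: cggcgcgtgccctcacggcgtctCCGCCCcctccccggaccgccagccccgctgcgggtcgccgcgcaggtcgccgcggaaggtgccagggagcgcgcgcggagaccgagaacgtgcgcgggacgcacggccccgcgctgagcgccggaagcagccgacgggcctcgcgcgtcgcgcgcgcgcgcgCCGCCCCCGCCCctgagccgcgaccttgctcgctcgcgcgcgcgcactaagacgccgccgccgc
Kdm5b: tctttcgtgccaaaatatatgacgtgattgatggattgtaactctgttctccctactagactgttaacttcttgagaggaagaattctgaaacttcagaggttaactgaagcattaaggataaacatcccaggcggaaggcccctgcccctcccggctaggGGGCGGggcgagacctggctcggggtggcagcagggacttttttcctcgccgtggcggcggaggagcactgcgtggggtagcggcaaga
Kdm8: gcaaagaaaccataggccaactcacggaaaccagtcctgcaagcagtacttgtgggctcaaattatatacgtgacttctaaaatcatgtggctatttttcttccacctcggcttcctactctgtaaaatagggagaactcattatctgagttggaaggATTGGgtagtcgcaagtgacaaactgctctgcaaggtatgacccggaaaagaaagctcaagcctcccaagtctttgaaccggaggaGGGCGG
Sirt5: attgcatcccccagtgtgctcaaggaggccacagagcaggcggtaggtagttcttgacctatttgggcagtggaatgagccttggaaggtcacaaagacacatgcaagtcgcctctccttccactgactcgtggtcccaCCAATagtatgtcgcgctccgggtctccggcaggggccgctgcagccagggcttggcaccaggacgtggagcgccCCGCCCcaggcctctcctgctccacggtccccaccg
The Kdm7a window holds 3 GC boxes and is 82.0% G and C, against a median of 52.4% over all windows. Kdm5b holds 1 GC box, and Kdm8 and Sirt5 hold 1 GC box and 1 CCAAT match each. A GC box was found in 9 of 15 windows of lower members, 5 of 6 of higher members and 18 of 35 of members not called, and in 32.7% of 32851 windows of the table. CCAAT matches were in 4, 3 and 16 of those windows, and in 33.8% of all. The AP-1 type motif TGANTCA was in 3 of the 15, 0 of the 6 and 3 of the 35, and in 6.75% of all. CACGTG (an E-box) was in 1, 0 and 3, against 6.02% of all, and TGACGTCA (a cAMP response element) in 0, 0 and 1, against 1.55%. Some genes have several windows and so count more than once, and no motif of the 5 contains another.

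The 3 largest differences belonged to demethylases, and all were falls in CD117pos. Kdm7a removes methyl groups from lysines of histone H3 that mark silent chromatin. Its intensities in CD117neg were 861, 2109, 1658 and 1394 in mice _948, _951, _952 and _953, an order kept throughout. In CD117pos they were 87.8, 82.9, 177 and 45.3. Every CD117pos array was thus far below every CD117neg array, by 13.8-fold on average (log2 difference -3.79 ± 0.31, limma adjusted p = 0.00165, Entrez gene 338523). Of the other 4 Kdm7a probe sets, a bright one differed by -3.51 ± 0.28 and a dimmer one by -2.39 ± 0.21, both past the threshold. The remaining 2 were dim in both fractions (means of at most 14.1) and did not pass, and the mean over all 5 gave -1.86 (adjusted p = 0.00153).

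Kdm6b, also called Jmjd3, removes the Polycomb methyl mark from histone H3 and is known for its induction in activated macrophages. Its CD117neg intensities were 2911, 4225, 2928 and 2896 and its CD117pos intensities 362, 197, 426 and 459.6. The fractions lay far apart in every mouse, and the CD117neg array of _951 stood above the other 3. The log2 difference was -3.15 ± 0.30, or 8.90-fold (adjusted p = 0.00251). Both other Kdm6b probe sets fell as well, by -2.71 ± 0.17 and -2.08 ± 0.43 as signed differences. Kdm6a, or Utx, the X-linked enzyme for the same mark, also fell. It read 799, 918, 889.8 and 729 in CD117neg and 498, 483, 532 and 507 in CD117pos, with no overlap (difference -0.70 ± 0.12, adjusted p = 0.012). A pair of its 3 other probe sets passed in the same direction. Kdm7a and Kdm6b were the 2 members whose call held in all 13 alternative analyses, with differences from -4.02 to -1.86 and from -3.33 to -2.65. The Kdm6a call was lost on leaving out _948 (adjusted p = 0.0658) or _952 (0.0649).

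Enzymes of the KDM5 group erase methylation of histone H3 at active promoters. Kdm5b read 314, 583, 231 and 335 in CD117neg and 34.5, 303, 26.4 and 69.2 in CD117pos, a difference of -2.05 ± 0.31 (adjusted p = 0.00868). Both arrays of mouse _951 were the highest of their fraction, and its CD117pos array overlapped the CD117neg range. Within that mouse the difference was -0.91, against -2.71, -2.54 and -2.04 in the other mice. A second, dimmer probe set went from 77.6 ± 13.7 to 27.7 ± 10.7, a difference of -1.12 ± 0.14 (adjusted p = 0.00539). The mean over all 4 probe sets gave -0.90 (adjusted p = 0.00385). Without mouse _953 the difference was -2.05 but did not pass (adjusted p = 0.0546). X-linked Kdm5c differed by -0.42 ± 0.11 (adjusted p = 0.0421), from 469, 479, 592 and 604 to 361, 372, 425 and 428. The 8 other Kdm5c probe sets did not pass, and the call ended in 9 of the 13 alternatives, among them both rescalings (-0.23 and -0.32, adjusted p = 0.188 and 0.0956), the comparison without mouse pairing (adjusted p = 0.0505), and the leaving out of _948, _952 or _953 (adjusted p = 0.141, 0.157 and 0.146). Kdm5a differed by -0.38 ± 0.18 and did not pass (adjusted p = 0.195), while 1 of its 5 dimmer probe sets did, at -0.64 ± 0.12.

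Jmjd1c, a nuclear JmjC protein of the KDM3 family, read 1769, 2021, 1861 and 1743 in CD117neg and 1001, 705, 1405 and 1125 in CD117pos. The groups did not overlap (difference -0.83 ± 0.20, adjusted p = 0.0346), and the fall was widest in _951 (-1.50) and narrowest in _952 (-0.40). One of its other probe sets passed too, at -0.93 ± 0.21. The call ended after quantile normalisation (difference -0.61, adjusted p = 0.0723), after centring (0.0518), when 1 rather than 16 was added before the log (0.0703), and on leaving out _948, _952 or _953 (adjusted p = 0.128, 0.0653 and 0.104). Its relatives Kdm3a and Kdm3b, which remove methyl groups from a lysine of silent chromatin, differed by -0.56 ± 0.22 and -0.29 ± 0.14 without passing (adjusted p = 0.135 and 0.218). Neither had overlapping fractions. For Kdm3a the within-mouse difference was -1.36 in _951 and -0.35 to -0.24 in the other mice. Phf8, an X-linked enzyme related to Kdm7a, differed by -0.51 ± 0.18 (adjusted p = 0.0992), and was lower in CD117pos in each mouse.

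Kdm8, a JmjC protein with roles in cell cycle progression, was the demethylase-class gene that rose. It read 81.1, 92.6, 101 and 84.9 in CD117neg and 228, 118, 204 and 232 in CD117pos. All CD117pos arrays were above all CD117neg arrays, with that of _951 the nearest (difference 0.96 ± 0.20, 1.94-fold, adjusted p = 0.0231). The single Kdm8 probe set lost its call without _948, _952 or _953 (adjusted p = 0.106, 0.0912 and 0.107), at differences of 0.84, 0.98 and 0.85.

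The LSD enzyme Kdm1a, a target of inhibitors tried in acute myeloid leukaemia, showed no difference beyond its spread. Its intensities were 808, 728, 703 and 686 in CD117neg and 694, 725, 768 and 741 in CD117pos. The groups overlapped fully, and the 95% interval of the difference was -0.29 to 0.30. Kdm1b differed by -0.29 ± 0.12 (adjusted p = 0.15). Among KDM4 enzymes, Kdm4c measured 406 ± 24.8 and 409 ± 39.1 (interval -0.27 to 0.29), Kdm4a differed by -0.25 ± 0.18, and Kdm4b and Kdm4d were dim, with means of at most 35.4. Jmjd6, at -0.22 ± 0.19, did not pass either (adjusted p = 0.484).

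The 2 KDM2 enzymes, which bind unmethylated CpG islands, depended on the probe set. The brightest Kdm2a probe set differed by -0.43 ± 0.16 and did not pass (adjusted p = 0.113). A second went from 231 ± 90.0 to 67.2 ± 18.8, a difference of -1.53 ± 0.19 (adjusted p = 0.0056), and another by -0.88 ± 0.15 (adjusted p = 0.0125). One of the 4 further Kdm2a probe sets also fell, at -0.75 ± 0.19, and 3 did not pass. With the mean of all 7 the gene passed (-0.49, adjusted p = 0.0194), as it did without mouse _951 (-0.55, adjusted p = 0.0386). Kdm2b, part of a Polycomb complex, differed by 0.15 ± 0.14 in its brightest probe set (adjusted p = 0.523). Its other probe set rose by 0.49 ± 0.12 (adjusted p = 0.0429). This probe set is not of the type that can match transcripts of several genes (names ending in _s_at or _x_at, called shared-sequence here). In 17 of the 29 genes with several probe sets these differed in call, and in 0 did one rise and another fall.

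**Figure D2:**
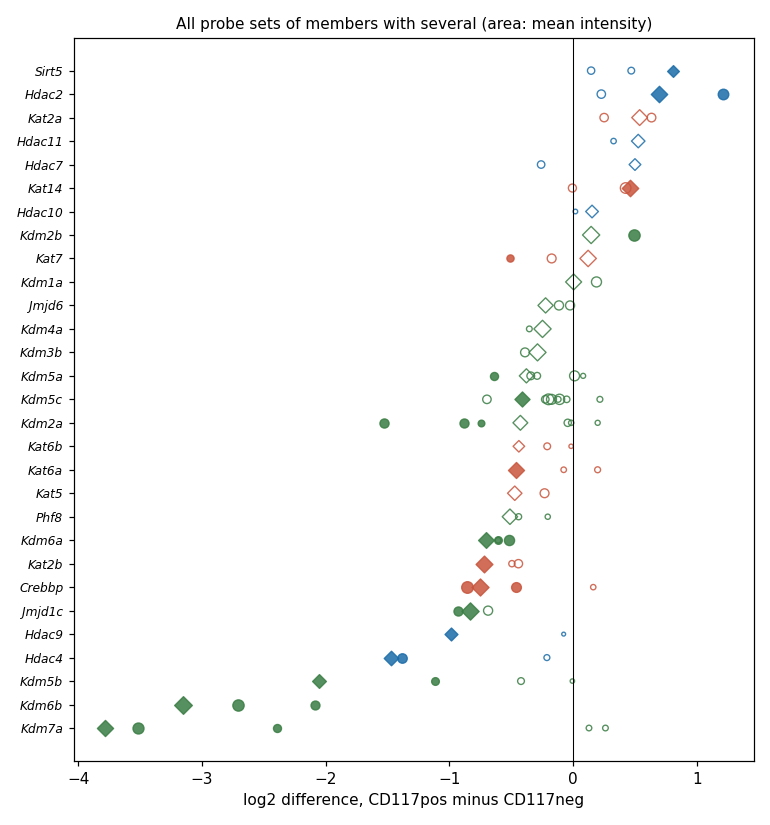
Log2 difference of every probe set of the 29 members with several; diamonds mark the probe set used for the gene, filled symbols passed the threshold, area grows with mean intensity, and colours are blue for deacetylases, red for acetyltransferases and green for demethylases. Filled symbols of 1 gene lie on the same side of 0, and 3 filled Kdm2a circles lie to the left of its open diamond.

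Of the 4 coactivator acetyltransferases Ep300, Crebbp, Kat2b and Kat2a, 3 were lower in CD117pos. Ep300 and Crebbp encode p300 and CBP, the paired enzymes recruited by many transcription factors, and Kat2b encodes PCAF, which works with them. Ep300 read 1818, 2288, 2171 and 1962 in CD117neg and 1032, 985, 1379 and 1114 in CD117pos (difference -0.87 ± 0.13, 1.82-fold, adjusted p = 0.00914). Crebbp read 1399.9, 1846, 1628 and 1728 and 895, 999.8, 1008 and 981, a difference of -0.75 ± 0.11 (adjusted p = 0.00801). In both genes every CD117pos array was below every CD117neg array, and the spread within CD117pos was small for Crebbp (971 ± 51.9). A pair of further Crebbp probe sets also fell, by -0.86 ± 0.14 and -0.46 ± 0.12 as signed differences. The Crebbp difference was -0.48 with the mean of its 4 probe sets (adjusted p = 0.0353). Kat2b went from 1174, 1749.7, 1196 and 1664 to 756, 804, 849 and 1043, again without overlap (difference -0.72 ± 0.14, adjusted p = 0.0189). That reading rests on a probe set of the shared-sequence type, and without such probe sets the difference was -0.44 (adjusted p = 0.153).

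The calls of these 3 genes were near the threshold when _948, _952 or _953 was left out. Without _953, adjusted p was 0.0513 for Ep300, 0.0502 for Crebbp and 0.0802 for Kat2b. Without _948 it was 0.0528 for Ep300 and 0.0791 for Kat2b, and without _952 0.0574 for Kat2b. Ep300 kept its call without _952 (adjusted p = 0.0386). The signed differences of the 3 genes in the fits without _948, _952 or _953 lay between -0.94 and -0.73. Without _951 all 3 passed, with adjusted p of 0.00707 for Ep300, 0.00848 for Crebbp and 0.0147 for Kat2b. Kat2a, or GCN5, the paralog of Kat2b, did not pass. It read 414, 608, 532 and 619.6 in CD117neg and 895, 627, 820.2 and 830.0 in CD117pos, so that CD117pos arrays were higher without overlap (difference 0.54 ± 0.19, adjusted p = 0.102). It passed after quantile normalisation (0.74, adjusted p = 0.0312) and without mouse _951 (0.70, adjusted p = 0.0283).

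Among the 5 MYST acetyltransferases 1 fell and 4 did not pass. Kat6a, or MOZ, a translocation partner in some myeloid leukaemias, read 776, 1023, 838 and 850.1 and 489.9, 834, 631 and 598 (difference -0.46 ± 0.12, adjusted p = 0.0418). The fractions overlapped, and the call ended in 8 alternatives, among them quantile normalisation (-0.24, adjusted p = 0.217), centring (0.0795), the fit without mouse pairing (0.0924) and the fits without _948, _952 or _953 (0.174, 0.132 and 0.143). Kat5, or TIP60, differed by -0.47 ± 0.13 (adjusted p = 0.0579) and passed without mouse pairing (adjusted p = 0.0318). That probe set is of the shared-sequence type, and without such probe sets the Kat5 difference was -0.23 (adjusted p = 0.489). Kat6b, Kat7 and Kat8 differed by -0.44 ± 0.31, 0.12 ± 0.15 and 0.13 ± 0.21, and a dim further Kat7 probe set passed at -0.51 ± 0.12. Kat14, a component of the ATAC complex, rose. Its intensities were 749, 782, 868 and 797 in CD117neg and 1041, 1114, 1241 and 1036 in CD117pos, with no overlap (difference 0.46 ± 0.11, adjusted p = 0.0303). The differences within the 4 mice lay close together, between 0.37 and 0.51. The call ended without _948, _952 or _953 (adjusted p = 0.126, 0.126 and 0.094) and when its probe sets were averaged (0.29, adjusted p = 0.127). It also ended when 1 rather than 16 was added (adjusted p = 0.0789). The Kat14 reading rests on a shared-sequence probe set, and without such probe sets the difference was 0.42 (adjusted p = 0.0667).

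**Figure D3:**
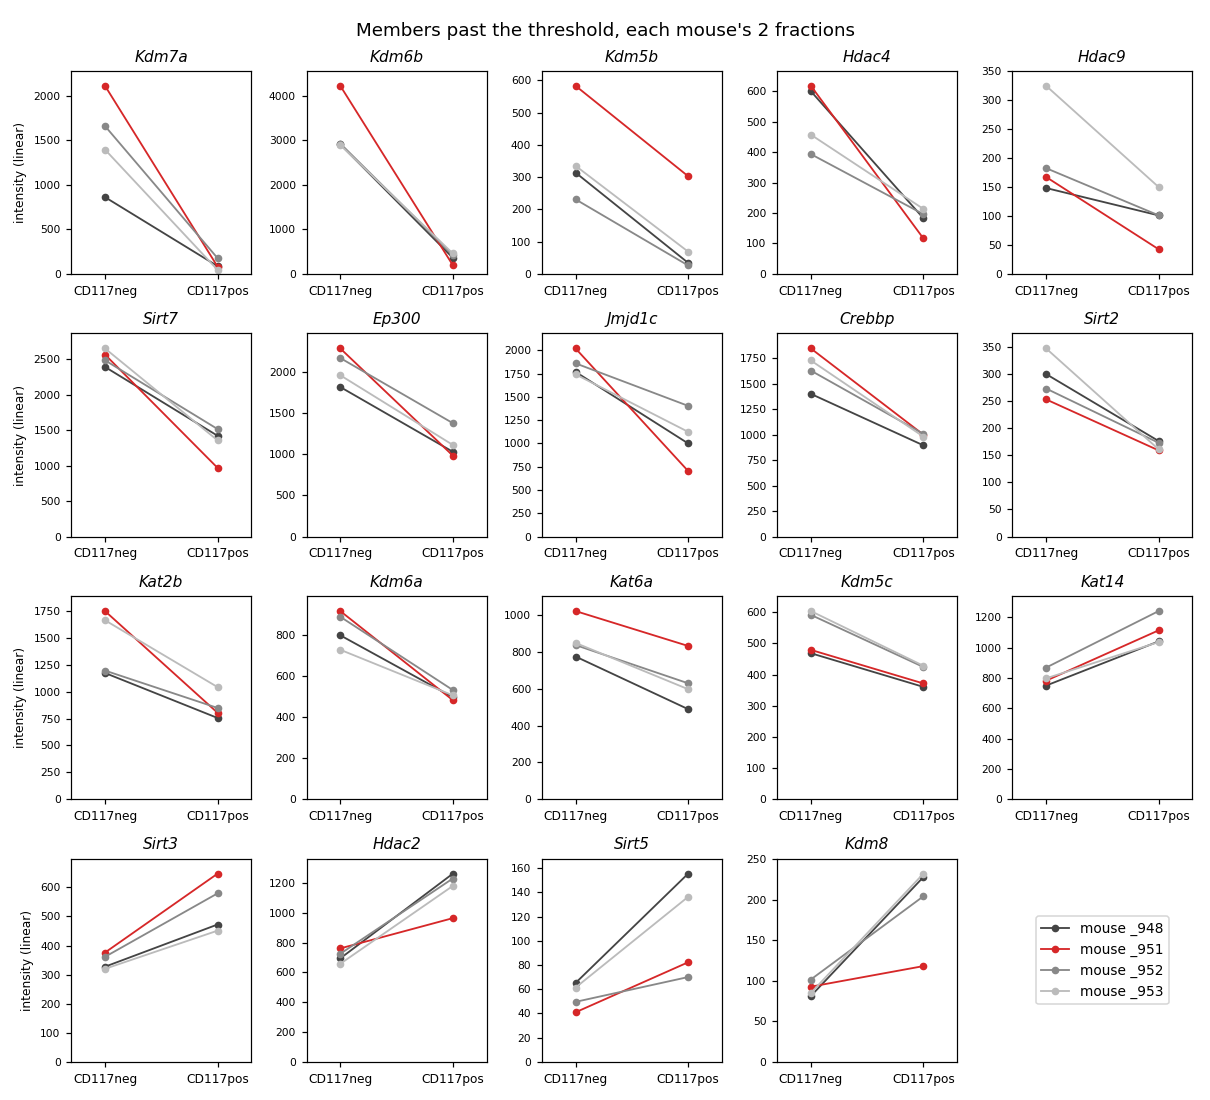
Linear intensity in the 2 fractions of each mouse for the 19 genes past the threshold; each line joins 1 mouse and mouse _951 is red. All lines of the first 14 panels fall and all lines of the last 5 rise, and the red line lies above the other 3 in both fractions for Kdm5b, Kat6a and Sirt3.

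Class IIa deacetylases, which shuttle between nucleus and cytoplasm and repress targets of MEF2 factors, held the falls among the zinc-dependent deacetylases. Hdac4 read 600.2, 618, 394 and 457 in CD117neg and 183, 117, 196 and 214 in CD117pos. The fractions did not overlap, and the difference was -1.47 ± 0.24, or 2.77-fold (adjusted p = 0.0109). A second Hdac4 probe set fell by a like amount (-1.38 ± 0.32), and without mouse _948 the call ended (adjusted p = 0.0649). Hdac9 went from 148, 167, 182 and 324 to 101, 42.5, 101 and 149.7, lower in each mouse, though the highest CD117pos value exceeded the lowest CD117neg value (difference -0.98 ± 0.21, adjusted p = 0.0232). Its call ended without mouse pairing (0.0702), with a pseudocount of 1 (0.0543), with the mean of its 2 probe sets (difference -0.53, adjusted p = 0.0617), and without _952 or _953 (0.0765 and 0.104). Without the CD117pos array of _951, in a fit without pairing, the Hdac9 difference was -0.69 (adjusted p = 0.0765).

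Hdac5 read 1125, 1163, 1073 and 1213 in CD117neg and 784, 444, 796 and 884 in CD117pos. Here the groups did not overlap, but the call was missed (difference -0.69 ± 0.19, adjusted p = 0.0559). The within-mouse difference was -1.36 in _951 and -0.51, -0.42 and -0.45 in the other mice, and without _951 the gene passed at -0.46 (adjusted p = 0.0281). Hdac7 differed by 0.50 ± 0.23 and did not pass (adjusted p = 0.189).

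Class I deacetylases, apart from Hdac8, are the catalytic subunits of the NuRD, Sin3, CoREST and NCoR complexes. Hdac2 was the 1 of 4 that rose, from 694, 760.5, 725 and 657 in CD117neg to 1262, 963, 1229 and 1179 in CD117pos. All CD117pos arrays were higher than all CD117neg arrays, with _951 the closest (difference 0.69 ± 0.14, adjusted p = 0.0187). A second Hdac2 probe set, not of the shared-sequence type, rose by 1.21 ± 0.18 (adjusted p = 0.0089). The Hdac2 call ended without _948, _952 or _953 (adjusted p = 0.0959, 0.0889 and 0.0908). Its near-identical partner Hdac1 read 2035, 2092, 2191 and 2159 and 2185, 1749.8, 2327 and 2347. The fractions overlapped, with a difference of 0.01 ± 0.12 (95% interval -0.29 to 0.32). Whether Hdac1 and Hdac2 differ from each other was not tested.

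Hdac3, the enzyme of the NCoR complexes, has only a shared-sequence probe set. It read 332, 351, 380.2 and 329 in CD117neg and 533, 334, 573 and 520.4 in CD117pos. It was higher by 0.57 to 0.66 in 3 mice and differed by -0.07 in _951. The call was missed over all mice (0.45 ± 0.16, adjusted p = 0.111) and reached without _951 (0.62, adjusted p = 0.0114) and after quantile normalisation (0.63, adjusted p = 0.0314). Hdac8, a dim gene (25.9 ± 6.64 and 41.7 ± 11.5), and Hdac6, the class IIb tubulin deacetylase, were likewise called without _951 and not over all mice. Hdac8 differed by 0.45 ± 0.15 over all mice (adjusted p = 0.0972) and by 0.57 without _951 (adjusted p = 0.0327). Hdac6 went from 103, 176, 164 and 138 to 222, 94.1, 227 and 238, higher in 3 mice and lower in _951 (difference 0.34 ± 0.31, adjusted p = 0.503), and passed without _951 (0.72, adjusted p = 0.019). Hdac10 differed by 0.15 ± 0.16.

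Hdac11, the class IV enzyme, depended on 1 array for its sign. It read 70.9, 58.9, 61.8 and 59.3 in CD117neg and 36.8, 1258, 42.1 and 26.0 in CD117pos. The CD117pos array of _951 was thus far above every other array, while the 3 other CD117pos arrays were below all CD117neg arrays. Over all mice the difference was 0.53 ± 0.87 (adjusted p = 0.723). Without _951 it was -0.66 and passed (adjusted p = 0.0174). The second Hdac11 probe set was dim in both fractions (6.44 ± 2.24 and 12.1 ± 2.45), on the _951 CD117pos array too, and did not pass.

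Of the 7 sirtuins, 2 fell, 2 rose and 3 did not pass. Sirt7, a nucleolar enzyme, read 2393, 2567, 2486 and 2653 in CD117neg and 1422, 969, 1517 and 1357 in CD117pos, without overlap (difference -0.95 ± 0.15, 1.93-fold, adjusted p = 0.0104). Sirt2, found mainly in the cytoplasm, where tubulin is a substrate, went from 299, 253, 273 and 347 to 176, 159, 173 and 161. Its CD117pos arrays lay in a narrow range below all CD117neg arrays (difference -0.75 ± 0.13, adjusted p = 0.0118). The Sirt7 call ended without _953 (adjusted p = 0.0601) and that of Sirt2 without _948, _952 or _953 (adjusted p = 0.0653, 0.0518 and 0.0564).

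Both sirtuins that rose are mitochondrial. Sirt3, the main mitochondrial deacetylase, read 327, 376, 361 and 319.9 in CD117neg and 472, 647, 579 and 451 in CD117pos, without overlap (difference 0.60 ± 0.11, 1.52-fold, adjusted p = 0.0169). Sirt5, which removes succinyl and malonyl groups, read 65.2, 40.9, 49.5 and 61.4 and 155, 82.2, 70.0 and 136. All 4 CD117pos values were above the CD117neg range (difference 0.81 ± 0.15, adjusted p = 0.016), but the gene was dim, its other 2 probe sets did not pass, and the mean of the 3 gave 0.47 (adjusted p = 0.0348). Sirt3 did not pass without _948, _952 or _953 (adjusted p = 0.0741, 0.0857 and 0.063), and Sirt5 did not without _948 or _953 (adjusted p = 0.0829 and 0.0821). Sirt4, also mitochondrial, was below the array median on all 8 arrays. Sirt1, a nuclear deacetylase, measured 759.6 ± 131 and 741 ± 181 (interval -0.55 to 0.45), higher in 3 mice and lower in _951 (-0.77). Sirt6 differed by -0.04 ± 0.16.

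**Figure D4:**
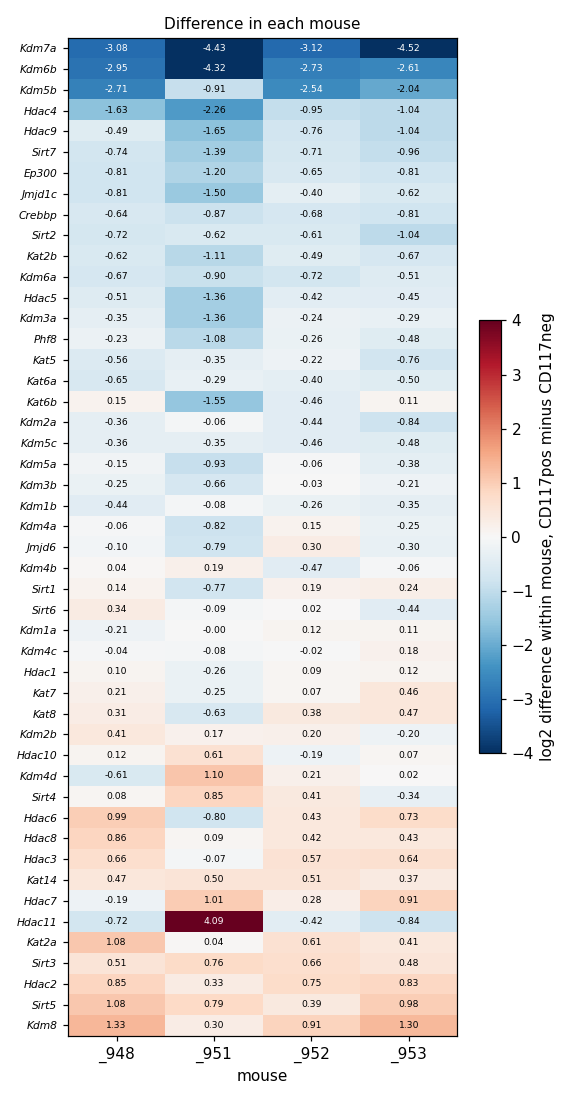
Log2 difference (CD117pos minus CD117neg) within each of the 4 mice for the 48 genes, ordered by the mean difference; the colour scale ends at 4 in both directions and the numbers give the values. Hdac11 in mouse _951 is 4.09 where the other mice are below 0, and Kdm7a and Kdm6b are strongly negative in every column.

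Mouse _951 stood apart for several members. Over the 48 genes, the median within-mouse difference was -0.35 in _951 and -0.30 to -0.12 in the other mice, beside -0.047 to -0.0047 over all genes in the 4 mice. In _951, 34 members were lower in CD117pos and 14 higher, against 27 to 29 lower and 19 to 21 higher in the other mice. Leaving out only its CD117pos array, without pairing, gave 10 rises and 16 falls, with all 5 of the original rises and 12 of the 14 original falls among them. Of all genes, 11.9% rose and 16.2% fell in that fit. As given above, that array also had the highest 3' to 5' control ratio, and the part of RNA quality was not tested. The mouse term of the fit (moderated F-test) passed the adjusted threshold for 0 of the 48 members and 0 of all genes, a background of 0%. At an unadjusted p under 0.05 there were 3 members and 1403 of all genes.

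Partner genes were counted from lists of complexes and cofactors. Of all genes, 13.8% were lower and 8.36% higher. Of 35 measured subunits of the NCoR, Sin3, NuRD and CoREST complexes, 12 fell (34.3%) and 0 rose, with a median of -0.27. Phf21a, a CoREST reader, went from 369 ± 36.2 to 157 ± 59.1, Sap30, a Sin3 subunit, from 1157 ± 156 to 498 ± 156, and Mier1 from 784 ± 95.3 to 386 ± 91.1. Of 50 subunits of the SAGA, NuA4, MOZ, HBO1 and MSL or NSL acetyltransferase complexes, 6 rose (12%) and 4 fell (8%). Their median difference was 0.10. The ATPases Ruvbl1 and Ruvbl2 differed by 1.04 ± 0.21 and 0.92 ± 0.12, and the GCN5 adaptor Tada2a by 0.83 ± 0.15. The falls were led by the SAGA subunit Atxn7l3 (-0.73 ± 0.10), the MOZ scaffold Brpf1 (-0.70 ± 0.14) and the SAGA subunit Atxn7 (-0.68 ± 0.11).

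Of 17 other acetyltransferases, 3 rose (17.6%) and 6 fell (35.3%). Elp3, of the Elongator complex, went from 454 ± 63.7 to 1452 ± 200.4, Naa40, which acetylates histone amino termini, differed by 1.13 ± 0.14, and Hat1, which acetylates new histone H4, by 0.63 ± 0.12. The steroid receptor coactivators Ncoa3 and Ncoa1 differed by -1.62 ± 0.21 and -1.19 ± 0.17, and the circadian factor Clock by -1.41 ± 0.28. Among 26 readers of acetyl-lysine, 5 fell (19.2%) and 0 rose, led by Baz2a (-1.36 ± 0.20), Baz2b (-0.67 ± 0.13) and Bptf (-0.56 ± 0.13). Of 10 other JmjC genes, 2 rose (Jmjd8, 0.73 ± 0.12, and Riox2, 0.55 ± 0.12) and 1 fell (Riox1, -0.50 ± 0.11).

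Among 26 partners and kinases of class IIa deacetylases, 10 fell and 0 rose, with a median of -0.34. Mef2a, a DNA-binding partner of Hdac4 and Hdac9, went from 1401 ± 271 to 337 ± 68.3, a difference of -2.01 ± 0.14 (adjusted p = 0.00113). The kinase Camk1d went from 537 ± 281 to 13.2 ± 6.57 and the kinase Mark2 from 1337 ± 127 to 505 ± 156. Of 20 genes supplying acetyl-CoA or NAD, 3 rose and 5 fell. Nmnat3, a mitochondrial NAD synthesis enzyme, differed by 0.98 ± 0.14, Dlat, a pyruvate dehydrogenase subunit, by 0.60 ± 0.13, and Slc25a1, the mitochondrial citrate carrier, by 0.55 ± 0.13. Bst1, an NAD-consuming surface enzyme, went from 1505 ± 78.2 to 10.8 ± 3.22, and the acetyl-CoA synthetases Acss1 and Acss2 differed by -2.48 ± 0.14 and -1.25 ± 0.15. The shares to read these counts against are the same 13.8% lower and 8.36% higher of all genes.

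These list counts moved with the scaling and with single mice. After quantile normalisation, 6 corepressor subunits fell and 2 rose, 13 subunits of the acetyltransferase complexes rose and 3 fell, 2 acetyl-lysine readers fell and 1 rose, and 0 of the other JmjC genes fell. Over all genes, 10.7% fell and 13.4% rose in that setting. The median of the other acetyltransferases was then 0.02 in place of -0.21, with 5 rises and 4 falls. The class IIa partners and kinases kept 0 rises, with 7 falls. Without mouse _948, _952 or _953 the corepressor list held 1, 4 and 2 falls, the readers 0, 1 and 1, and the class IIa partners 6 in each case. In the same order, rises among the acetyltransferase complexes numbered 2, 1 and 1, those among the other JmjC genes 0, and those among the acetyl-CoA and NAD genes 1 in each case. The other acetyltransferases held 2 rises in each case, with 4, 3 and 3 falls. Shares over all genes in those fits were 6.76%, 7.72% and 6.7% lower and 2.47%, 3.36% and 2.42% higher. Without _951, 12 corepressor subunits fell and 2 rose, and 10 subunits of the acetyltransferase complexes rose and 6 fell. In that fit 16.4% of all genes were lower and 11.7% higher.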

How the data were processed

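RNA of each sorted fraction was amplified in 2 cycles and hybridised to Affymetrix arrays, per the labels' protocols. The deposited values are an intensity on a linear scale for 45101 probe sets. The software, the summary of probes and the scaling were not given in the sources used here, and intensities were used as deposited. Array medians lay between 31.0 and 32.8 in CD117neg and between 27.5 and 31.1 in CD117pos. Upper quartiles were 199 to 221 in CD117neg and 181 to 197 in CD117pos, so the CD117pos arrays were dimmer by this measure. The main fit did not rescale them. On each array, 841 to 898 values equalled 1. Probe sets with 1 symbol in the platform annotation (34945, without 64 controls) were named, and each gene took the probe set with the highest mean of log2(intensity + 16). Arrays have no read depth, so their number limits the precision.

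All 18193 genes were fitted with limma 3.58.1 in R 4.3.3 (lmFit, eBayes, two-sided), with the mouse as a block, since each mouse gave both fractions. Deviations from the fraction means correlated across genes within a mouse at 0.12 to 0.27, and each was above that mouse's highest correlation with another mouse (-0.01 to 0.11). P-values were Benjamini-Hochberg adjusted, with a threshold of 0.05. Single probe sets were tested in a fit of the same form over all 34945, and adjusted over those. The fit was also run on simulated data, but the outcome is not given here and nothing about the calls is drawn from it. Members and lists were chosen with earlier results of these data known. Every member may be named, with all array values where it passed, and of each partner list at most 3 genes per direction with the largest change past the threshold. The 13 alternatives were no block, pseudocounts of 1 and 64, quantile normalisation, median centring, a filter on low probe sets, the mean of probe sets, no shared-sequence probe sets (names ending in _x_at or _s_at), no CD117pos array of _951, and each mouse left out. Partner genes without a probe set of 1 symbol were not analysed here. Figures were drawn with matplotlib 3.10.9.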

Additional observations from a re-analysis of the deposited data

Results flagged for a closer look

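In 7 of 96 groups of 4 arrays (48 genes in 2 fractions), 1 array lay far from the other 3 by Dixon's test, and chance alone marks about 1 in 20 groups. All 7 belonged to mouse _951. On its CD117pos array, Hdac11 read 1258 against 26.0 to 42.1 on the other CD117pos arrays, and Kdm5b read 303 against 26.4 to 69.2. A second, dimmer Kdm5b probe set read 27.7 ± 10.7 over the 4 CD117pos arrays, a spread too small to hold a value like 303. The same array was low for Hdac6 (94.1 against 222 to 238), Jmjd6 (370.2 against 461 to 478), Kdm3b (832 against 1250 to 1314) and Kdm4a (938 against 1394 to 1479). On the CD117neg array of that mouse, Kdm6b read 4225, against 2896 to 2928 in the other CD117neg arrays. The 3' to 5' ratio of the beta-actin control was 3.21 on the CD117pos array of _951 and 1.55 to 2.08 elsewhere. Its part in these values was not tested.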

How the results depend on the processing

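The 19 called genes kept their direction in all 13 alternatives, and 17 of them lost the call in at least 1. Leaving out each mouse in turn gave 0 to 9 rises and 4 to 17 falls among the 48 genes, against 5 and 14. With 7 arrays (no CD117pos array of _951) and no mouse term there were 10 rises and 16 falls, beside 11.9% and 16.2% of all genes. The comparison without the replicate block gave 5 rises and 13 falls, of which 11 falls were among the 14 of the paired fit. Falls numbered 10 with a pseudocount of 1 and 15 with one of 64. Hdac11, not called over all mice, turned from 0.53 to -0.66 without _951 and to -0.64 without its CD117pos array, and ranged up to 0.98 when other mice were left out. Over all genes, falls and rises without mice _948, _951, _952 and _953 numbered 1230 and 450, 2985 and 2130, 1404 and 611, and 1219 and 440, against 2518 and 1521, and quantile normalisation gave 1941 and 2442. A fit without 1 mouse has fewer arrays. Sirt4 and Kdm4d gave no value without low probe sets, nor did 2 other members without shared-sequence probe sets. Dim genes (Sirt4, Kdm4b, Kdm4d, Hdac8) allow no firm size of difference.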
